A study of Mus musculus with 6 samples.

Results

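The surface receptors with which microglia bind apoptotic cells, modified lipoproteins and antibody-coated particles were followed through 10 genes: Mertk, Axl, Gas6, Cd36, Msr1, Marco, Fcgr1, Fcgr2b, Fcgr3 and Fcgr4. They were picked by name, and all probes of the array whose accession mapped to one of these symbols were taken whatever their values, which gave 13 of 56605 non-control probes. Axl, Msr1 and Fcgr2b had 2 probes each and the other 7 genes 1 probe each. Every one of the 13 probes was well above its local background on all 6 arrays, and none was saturated.

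The samples were microglia taken with P2RY12 antibody-coated magnetic beads from the brains of mice after acute ischemic stroke (AIS), modelled by transient occlusion of the middle cerebral artery. The control group (3 arrays) came from PGC-1αf/f mice, which carry a loxP-flanked PGC-1α allele linked to eGFP. The mPGC-1α group (3 arrays) came from PGC-1αf/f Cx3cr1-Cre/ER mice, in which a Cre made active by tamoxifen acts on that allele, to overexpress PGC-1α, in cells that use the Cx3cr1 promoter. Besides microglia these are border macrophages and monocytes, and the study left an interval after tamoxifen so that overexpression would remain in microglia. By their genotypes the groups differ in the Cre as well as in PGC-1α overexpression, and these cannot be told apart. All mice were labelled male, 10 weeks old and of C57BL/6 background, and the question was how gene expression differs between microglia with and without PGC-1α overexpression. No source used here says whether each array was 1 mouse or a pool, nor how long after the stroke cells were taken, so the p-values measure the spread between these arrays.

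Mertk and Axl are TAM receptors, tyrosine kinases that bind phosphatidylserine on dying cells through bridging ligands and start their uptake. The ligands are Gas6 and, for Mertk, protein S. Cd36, Msr1 and Marco are scavenger receptors, which take in oxidised lipids, lipoproteins, bacteria and debris without antibody. The Fcγ receptors bind IgG: Fcgr1, Fcgr3 and Fcgr4 activate the cell through the ITAM chain Fcer1g and the kinase Syk, while Fcgr2b inhibits it.

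Levels are given in log2 units relative to the 75th percentile of each array, so a level of 0 is a spot as bright as the 75th percentile of the non-control spots on that array. Values follow the order of arrays 1, 2 and 3. A difference is mPGC-1α minus control, and levels of different probes cannot be set against each other. Spots that the scanner software marked as uneven or as population outliers were left out, which took 10 of the 78 spots of these genes, 5 of them on mPGC-1α array 3 and none on control array 1 or mPGC-1α array 1. With at least 2 unmarked values per group, 11 probes of 8 genes could be tested. The single probes of Fcgr1 and Fcgr3 were marked too often and are given by their values.

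Some facts of the arrays bear on what follows. Neither probe of Ppargc1a, which encodes PGC-1α, was higher in the mPGC-1α group. The brighter one stood at -1.44, -0.94 and -0.93 in control and at -1.49, -1.27 and -1.54 in mPGC-1α. Whether either probe can see RNA of the overexpressed allele is not given in the sources used here. The microglial genes P2ry12 (3.54 to 4.01) and Tmem119 (4.76 to 5.11) were well above background on all 6 arrays, marked spots included. So were the neutrophil gene S100a8 (4.31 to 5.23) and the brighter probe of the neuronal gene Snap25 (4.84 to 5.69). The other Snap25 probe stood at -6.57 to -3.05 and was well above background on 5 arrays. Control array 2 stood apart. Xist was at -5.21 there and between -0.97 and -0.51 on the other 5 arrays, and 6 of 7 probes of Y-linked genes were well above background there against 1 or 2 on each of the others. The values of those 5 arrays go against their male label. Of 36995 probes measured on all arrays, 6.48% lay at least 1 log2 unit lower on control array 2 than on both other control arrays.

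No receptor or ligand probe differed between the groups at an adjusted p below 0.05: 0 of 11 tested probes, with a background of 0 of 40745 (0%) over the whole array (limma, lowest adjusted p 0.573). At an unadjusted p below 0.05 there was 1 of the 11, the brighter Msr1 probe, against a background of 7.15% of all tested probes. Lower calls at that level made up 4.85% of all tested probes. The dimmer Axl probe was the only 1 of the 11 to differ at least 2-fold, with a background of 5.5% in either direction and 4.49% lower. Of the 11 differences, 8 were below 0, against 42.1% of all tested probes. By brightest probe, 5 of the 8 genes had differences below 0, and the median of -0.06 compares with 0.09 over 18222 genes. It was -0.27 when only probes well above background on all 6 arrays, with no marked spot, were taken (6 genes, Axl by its dimmer probe). Pairing the arrays by replicate number left the count past the test at 0 of 11, against 0.00245% of all probes. Over the unmarked arrays the brightest tested probes spanned from 0.38 log2 units for Axl to 1.74 for Msr1.

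**Figure D1:**
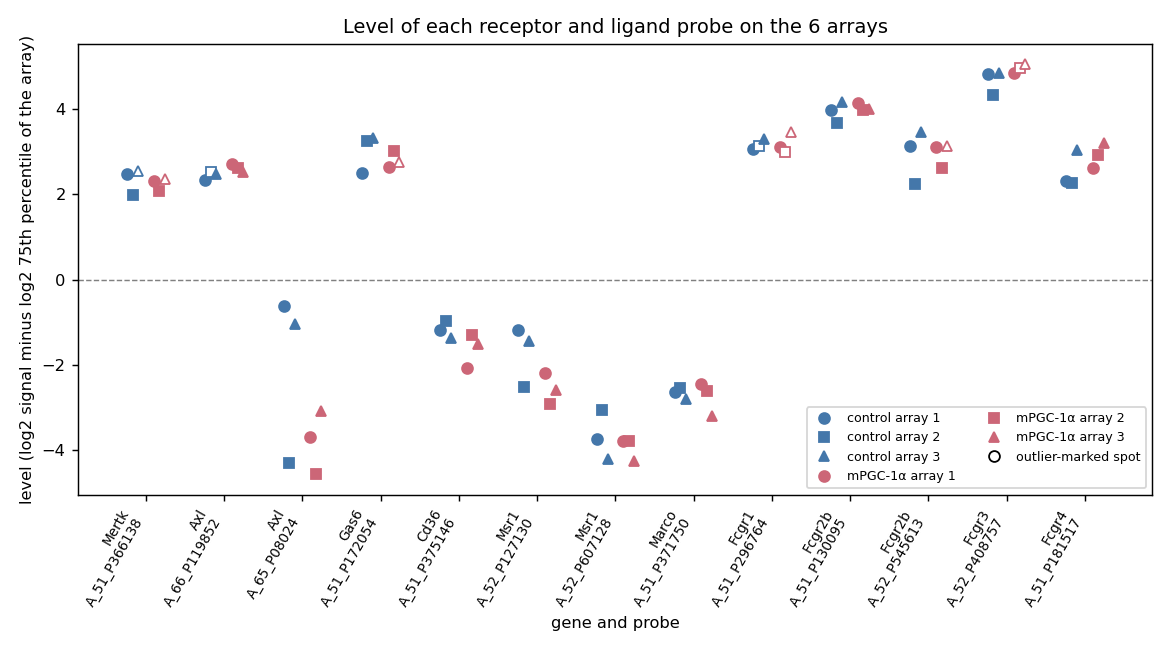
Level of each probe (y axis, log2 units relative to the 75th percentile of the array) on the 3 control arrays (blue) and the 3 mPGC-1α arrays (red), with circles, squares and triangles for arrays 1, 2 and 3 and open symbols for marked spots. The groups overlap on every probe but the brighter Axl one, unmarked spots taken. The dimmer Axl probe and the brighter Msr1 probe are high on control arrays 1 and 3 and low on control array 2 and all 3 mPGC-1α arrays.

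Mertk, an uptake receptor of microglia for apoptotic cells, had unmarked values of 2.47 and 1.97 in control and of 2.32 and 2.07 in mPGC-1α, from arrays 1 and 2. The mPGC-1α values lay between the control ones. The difference was -0.03 ± 0.27 (SE, 2 arrays per group, limma adjusted p = 0.991), with a 95% interval from -0.66 to 0.61. With the marked spots of the third arrays kept (2.55 in control, 2.36 in mPGC-1α) it was -0.08.

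Axl, the TAM receptor that rises in activated microglia, gave opposite pictures on its 2 probes. The brighter probe (A_66_P119852) read 2.33 and 2.46 on control arrays 1 and 3, its spot on control array 2 being marked, and 2.71, 2.61 and 2.52 in mPGC-1α. All mPGC-1α values were above both control values, by a difference of 0.22 ± 0.20 (SE, 2 control and 3 mPGC-1α arrays, limma adjusted p = 0.860, 95% interval -0.25 to 0.68). Among the 11 tested probes it was the only 1 whose groups did not overlap, with a background of 11.9% of all tested probes, and with the marked control value of 2.52 kept the groups overlapped. The dimmer probe (A_65_P08024) read -0.62, -4.30 and -1.04 in control and -3.69, -4.55 and -3.09 in mPGC-1α. Control arrays 1 and 3 were thus above every mPGC-1α array, and control array 2 lay among the mPGC-1α arrays. The difference was -1.79 ± 0.85 (SE, 3 arrays per group, limma adjusted p = 0.720, 95% interval -3.69 to 0.11, exact permutation p = 0.30, two-sided, where 0.10 is the smallest that 3 against 3 allows).

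Without control array 2 the dimmer Axl probe differed by -2.95 ± 0.41 (SE, 2 control and 3 mPGC-1α arrays, limma adjusted p = 0.0062), which is 7.71-fold lower in mPGC-1α. In that fit 5.42% of 39288 probes passed, with 5.1% lower. The brighter Axl probe, which had no value on control array 2 in either fit, was again at 0.22 (adjusted p = 0.431). Control array 2 was the lowest control on the dimmer probe, so leaving it out widened that difference by itself. Leaving out control array 1 instead gave -1.11 on the dimmer probe, and leaving out control array 3 gave -1.32, neither past the limma test. The 2 Axl probes differed in direction, as did those of 50.2% of 6367 genes with several tested probes. Axl was also among the 3.3% of those genes whose probes were at least 2 log2 units apart, a distance that it fell just short of with the marked spot kept. Which of them follows Axl transcripts more closely was not tested.

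Gas6, the ligand of all TAM receptors, read 2.50, 3.24 and 3.32 in control and 2.64 and 3.00 in mPGC-1α, where the third spot was marked. The mPGC-1α values lay within the control range. The difference was -0.20 ± 0.29 (SE, 3 control and 2 mPGC-1α arrays, limma adjusted p = 0.921, 95% interval -0.86 to 0.46), -0.048 with the replicate block, -0.088 without control array 2 and -0.46 without control array 1. Control array 1 and mPGC-1α array 1 were the lowest of their groups, while arrays 2 of both groups, on the same slide, read higher.

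**Figure D2:**
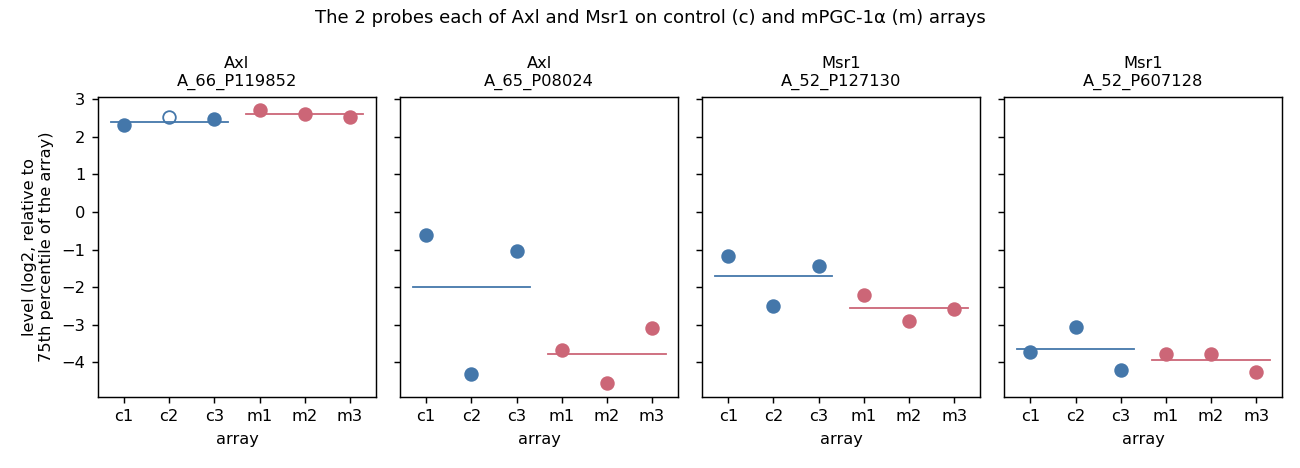
Level (y axis, log2 units relative to the 75th percentile of the array) of the 2 probes each of Axl and Msr1 on control arrays 1 to 3 (c1 to c3) and mPGC-1α arrays 1 to 3 (m1 to m3), with group means of the unmarked spots as lines and a marked spot open. The dimmer Axl probe at -4.30 and the brighter Msr1 probe at -2.51 put control array 2 low, beside the mPGC-1α arrays. On the other Msr1 probe control array 2 is the highest, and on the other Axl probe its marked spot (2.52) lies above the unmarked control spots.

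The 3 scavenger receptors all had differences below 0, none past the test. Msr1, the class A receptor for modified lipoproteins and cell debris also known as CD204, read -1.17, -2.51 and -1.43 in control with its brighter probe (A_52_P127130) and -2.20, -2.91 and -2.58 in mPGC-1α. As with the dimmer Axl probe, control arrays 1 and 3 were above every mPGC-1α array and control array 2 was among them. The difference was -0.86 ± 0.38 (SE, 3 arrays per group, limma adjusted p = 0.696, unadjusted 0.048), or 1.81-fold lower, with a 95% interval from -1.71 to -0.01 and an exact permutation p of 0.20. It was -0.72 on the slide that held arrays 1 and 2 of both groups and -1.14 on the slide that held arrays 3. Without control array 2 it was -1.26 ± 0.27 (SE, 2 control and 3 mPGC-1α arrays, limma adjusted p = 0.036), or 2.40-fold lower. Leaving out that lowest control widened the difference by itself. Without control array 1 the difference was -0.59 and without control array 3 it was -0.72, neither past the limma test.

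The dimmer Msr1 probe (A_52_P607128) showed no such split. It read -3.73, -3.05 and -4.19 in control and -3.77, -3.78 and -4.26 in mPGC-1α, so that control array 2 was here the highest of all. The difference was -0.28 ± 0.36 (SE, 3 arrays per group, limma adjusted p = 0.907) and 0.02 without control array 2.

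Cd36, the class B receptor for oxidised lipoproteins and fatty acids, read -1.18, -0.97 and -1.38 in control and -2.08, -1.29 and -1.52 in mPGC-1α. mPGC-1α array 1 was the lowest and the groups overlapped by 1 value. The difference was -0.45 ± 0.27 (SE, 3 arrays per group, limma adjusted p = 0.783, 95% interval -1.07 to 0.17, exact permutation p = 0.20), -0.61 on the first slide and -0.14 on the second, and -0.23 without mPGC-1α array 1. Linear levels (in multiples of the 75th percentile) were summed over tested marker genes unmarked on all 6 arrays. On mPGC-1α array 1 the sum of 9 monocyte and macrophage genes was 20.9 against 29.2 to 39.0 on the control arrays. That of 3 neutrophil genes (Mpo, Camp and Cxcr2) was 9.54 against 19.6 to 32.3. Of the other tested neutrophil genes, Csf3r was higher there (5.20 against 4.70 and 4.94) and Retnlg lower (4.23 against 4.45 to 4.92). On mPGC-1α array 1 the sum of 5 endothelial and mural genes was 10.1 against 13.3 to 17.2 on the control arrays. Sums of neuron and oligodendrocyte genes were highest there (56.5 and 19.8). On mPGC-1α array 2, where Cd36 read -1.29, the monocyte and macrophage sum was 41.8. The part of these markers in the Cd36 value was not tested. In such bulk RNA fewer cells of a type and less RNA per cell cannot be told apart.

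Marco, a class A receptor that binds bacteria and particles, read -2.63, -2.54 and -2.80 in control and -2.44, -2.61 and -3.21 in mPGC-1α. The mPGC-1α arrays lay on both sides of the controls. The difference was -0.10 ± 0.29 (SE, 3 arrays per group, limma adjusted p = 0.966, 95% interval -0.75 to 0.55), 0.06 on the first slide and -0.41 on the second.

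All Fcγ receptor probes stood above the 75th percentile on every array, and none of the 3 that could be tested differed past the test. In the mouse genome 3 of the 4 genes lie side by side: Fcgr2b at chr1:170960558-170976071, Fcgr4 at chr1:171018926-171029761 and Fcgr3 at chr1:171051169-171065915, while Fcgr1 lies at chr3:96282909-96293969 (RefSeq, GRCm38.p6). The 100 bases before a RefSeq transcript start of each gene are shown (1 of 2 listed starts for Fcgr3), since these receptors are genes of the myeloid program run by the factor PU.1. Capitals mark GAGGAA on either strand (TTCCTC as read here), the core letters of its binding site.

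Fcgr1: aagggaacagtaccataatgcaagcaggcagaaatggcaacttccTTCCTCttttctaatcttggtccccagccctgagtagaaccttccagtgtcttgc
Fcgr2b: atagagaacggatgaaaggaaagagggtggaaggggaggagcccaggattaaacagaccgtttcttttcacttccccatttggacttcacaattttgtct
Fcgr3: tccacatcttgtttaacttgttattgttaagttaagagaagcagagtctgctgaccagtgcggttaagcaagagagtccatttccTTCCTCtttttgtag
Fcgr4: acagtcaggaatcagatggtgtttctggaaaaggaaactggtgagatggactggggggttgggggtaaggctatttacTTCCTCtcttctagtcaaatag

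They run 5′ to 3′ along the gene's strand and cover chr3:96293970-96294069 (minus strand) for Fcgr1, chr1:170976072-170976171 (minus) for Fcgr2b, chr1:171059395-171059494 (minus) for Fcgr3 and chr1:171018826-171018925 (plus) for Fcgr4. Both listed starts of Fcgr3 lie inside the range of the gene given above, not at its 5′ end. In Fcgr1, Fcgr3 and Fcgr4 the 6 letters begin 55, 15 and 22 bases before the start, or 6 from the other listed Fcgr3 start. These activating receptors hold the letters once in this window, and the inhibitory Fcgr2b does not. Of the 9 genes with a RefSeq promoter (none for Msr1), those 3 were the only ones to hold them, against 11.2% of 27025 genes. In the 250 bases before the start, none of the 9 held AAGGTCA, the half-site of the estrogen-related receptors that PGC-1α coactivates (4.7% of all genes did), or the PPAR response element (0.0407% of all genes). Both strands were searched, and these are letter matches, not binding sites. The shorter GGAA, part of GAGGAA, also occurs in the Fcgr2b window.

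Fcgr1, the high-affinity IgG receptor, read 3.05 and 3.29 on control arrays 1 and 3 and 3.10 on mPGC-1α array 1. With the marked spots kept, control array 2 was at 3.13 and mPGC-1α arrays 2 and 3 at 2.99 and 3.47, and the groups overlapped with a difference of 0.03. Fcgr3, the low-affinity activating receptor, read 4.83, 4.32 and 4.84 in control and 4.83 on mPGC-1α array 1. With the marked spots of 4.95 and 5.04 on mPGC-1α arrays 2 and 3 kept, the difference was 0.28 (exact permutation p = 0.20), and the lowest array was control array 2. It was 0.11 without that array and 0.091 with quantile normalization.

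Fcgr4, the receptor for IgG2a and IgG2b, read 2.30, 2.26 and 3.04 in control and 2.60, 2.93 and 3.21 in mPGC-1α. The third array was the highest of each group, and control array 3 lay above 2 mPGC-1α arrays. The difference was 0.38 ± 0.26 (SE, 3 arrays per group, limma adjusted p = 0.805, 95% interval -0.20 to 0.96), 0.49 on the first slide and 0.17 on the second. It ranged from 0.23 without mPGC-1α array 3 to 0.63 without control array 3, and was 0.24 without control array 2.

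Fcgr2b, whose ITIM damps signalling of the activating receptors, read 3.98, 3.67 and 4.16 in control and 4.14, 3.98 and 3.99 in mPGC-1α with its brighter probe (A_51_P130095). The groups overlapped, with a difference of 0.10 ± 0.18 (SE, 3 arrays per group, limma adjusted p = 0.939, 95% interval -0.31 to 0.51). Its other probe (A_52_P545613) read 3.13, 2.25 and 3.46 in control and 3.10 and 2.62 on mPGC-1α arrays 1 and 2, a difference of -0.09 ± 0.35 (SE, 3 control and 2 mPGC-1α arrays, limma adjusted p = 0.977). With the slide or the replicate number as a block that difference was 0.17, and without control array 2 it was -0.43, so its direction is not settled. Array 2 was the lowest of each group on this probe.

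**Figure D3:**
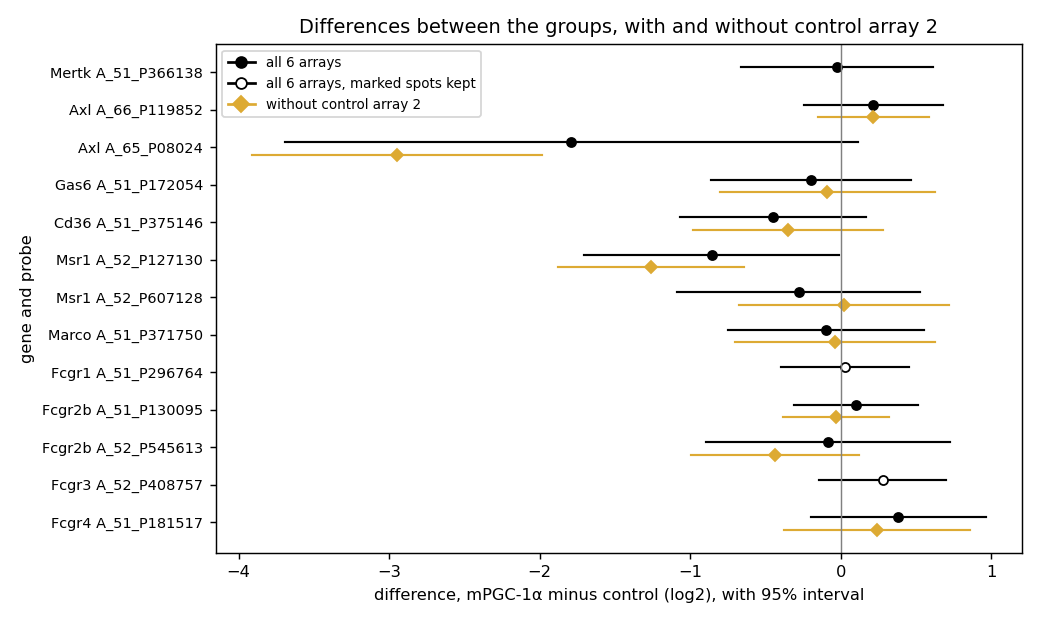
Difference between the groups (x axis, log2, mPGC-1α minus control) for each probe, as the limma estimate with its 95% interval, from all 6 arrays (black, open where marked spots were kept) and without control array 2 (yellow, not drawn for the 3 probes that could not then be tested). With all arrays the interval of 1 probe, the brighter Msr1 probe (-1.71 to -0.01), leaves out 0; without control array 2 the dimmer Axl probe does so too.

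Among 51 related genes, chosen as the rest of these pathways, 47 could be tested and none passed the limma test, with a background of 0% of 18222 genes by brightest probe. Differences were above 0 for 32 and below 0 for 15, where 38.3% of all genes were below 0, and the median was 0.07 against 0.09 over all genes. Of the 47, 7 had groups that kept apart (6 higher, 1 lower, background 12.6%). An unadjusted limma p below 0.05 was reached by 4 of the 47, against 1082 of all 18222 genes. For the 5 tested genes of the TAM axis (4 higher, 1 lower) the median was 0.30, and the receptor Tyro3 (0.40 ± 0.29, SE) and the ligand protein S, Pros1 (0.30 ± 0.18), both had overlapping groups. The 15 other scavenger receptors (10 higher, 5 lower) had a median of 0.03, with 0.06 ± 0.22 for Lrp1, a receptor for lipoproteins and protease complexes, and -0.14 ± 0.28 for Cd68, a lysosomal protein of phagocytes.

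None of the 9 tested Fc receptor partners passed the limma test. The shared ITAM chain Fcer1g read 4.71, 5.20 and 4.94 in control and 5.23, 5.29 and 5.15 in mPGC-1α, a difference of 0.27 ± 0.18 (SE, limma adjusted p = 0.794). The kinase Syk read 0.99, 0.95 and 0.80 in control and 1.17, 1.10 and 1.50 in mPGC-1α, a difference of 0.35 ± 0.20 (SE, limma adjusted p = 0.773) with every mPGC-1α array above every control array. Over the 9 tested Fc partners (6 higher, 3 lower) the median was 0.12.

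The 18 genes of engulfment receptors and machinery (12 higher, 6 lower, median 0.09) held the only 2 related genes whose groups did not overlap and differed at least 2-fold, a size that 3.25% of all genes reached. Elmo1, the Rac activator that works downstream of uptake receptors, read 0.84, -0.74 and 0.68 in control and -0.80, -0.78 and -1.04 in mPGC-1α, where control array 2 again lay next to the mPGC-1α arrays. The difference was -1.13 ± 0.39 (SE, limma adjusted p = 0.669) and -1.63 without control array 2 (adjusted p = 0.0027). Megf10, a receptor for apoptotic cells known from astrocytes, read -3.54, -3.23 and -3.36 in control and -2.16, -2.03 and -2.63 in mPGC-1α, a difference of 1.10 ± 0.28 (SE, limma adjusted p = 0.669). All mPGC-1α arrays were above all controls for Megf10, and without control array 2 the difference was 1.17 (adjusted p = 0.044). Trem2 (0.23 ± 0.17), a lipid receptor of microglia, and its partner Tyrobp (0.14 ± 0.22) did not pass either.

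Without control array 2, 4 of 42 related genes passed the limma test (Adam10, Elmo1 and Fcgrt lower, Megf10 higher), against a background of 3.47% of 17825 genes. Adam10, a protease that sheds Mertk and Axl from the cell surface, read -0.38, -2.23 and -0.81 in control and -2.07, -2.10 and -2.45 in mPGC-1α. Like the dimmer Axl probe and the brighter Msr1 probe, it was high on control arrays 1 and 3 and low on control array 2 and on every mPGC-1α array. Fcgrt, the neonatal Fc receptor that recycles IgG, read 2.32, 1.36 and 2.41 in control and 1.52, 1.52 and 1.70 in mPGC-1α, again with control array 2 the lowest. For Adam10, Elmo1 and Fcgrt, leaving out this lowest control widened the difference by itself. Adam10 and Fcgrt are named here after their values were seen.

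**Figure D4:**
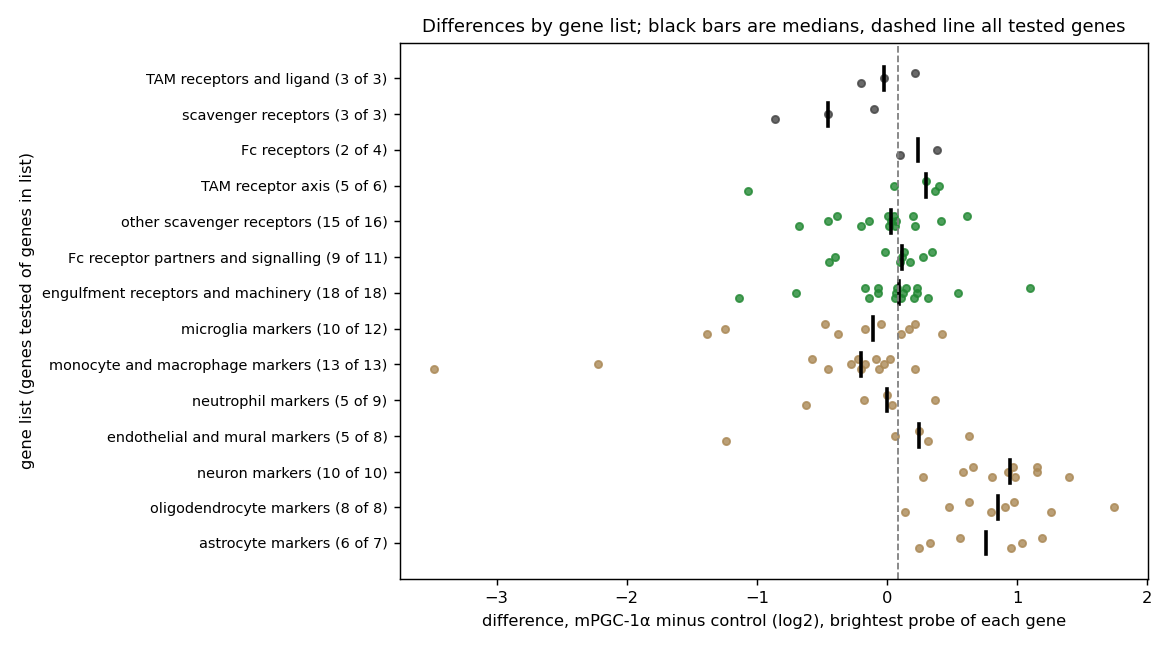
Difference (x axis, log2, mPGC-1α minus control) of each tested gene by its brightest probe, in the receptor groups (grey), the related lists (green) and cell type marker lists (brown), with list medians as black bars and the median over all genes (0.09) dashed. The neuron, oligodendrocyte and astrocyte lists lie wholly to the right of 0. Medians of the receptor groups and related lists run from -0.45 (scavenger receptors) to 0.30 (TAM receptor axis), with the Fc receptors at 0.24.

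The markers of other cell types that P2RY12-selected cells could hold were set beside these values. Differences were above 0 for all 10 neuron, 8 oligodendrocyte and 6 tested astrocyte markers (medians 0.95, 0.86 and 0.76). The summed linear level of the neuron markers was 30.9 to 50.4 in control and 49.0 to 56.5 in mPGC-1α. Most of that sum came from the brighter Snap25 probe, whose difference (0.28) was the smallest of the 10. The other Snap25 probe differed by -1.30. For oligodendrocyte markers the summed level was 3.59 to 10.3 in control and 11.4 to 19.8 in mPGC-1α. For astrocyte markers it was 5.57 to 8.55 and 8.78 to 25.8, mostly from Aldoc, which read 4.33 on mPGC-1α array 2. Of 13 monocyte and macrophage markers, 11 had differences below 0 (median -0.20), with summed levels of 29.2 to 39.0 in control and 20.9 to 41.8 in mPGC-1α. So did 2 of 5 tested neutrophil markers (median 0.00) and 6 of 10 tested microglia markers (median -0.11, summed level 75.8 to 90.4 in control and 73.0 to 79.0 in mPGC-1α). Of 5 tested endothelial and mural markers, 4 had differences above 0 (median 0.25). No list had a gene past the limma test with all arrays. With the replicate block Mmp12, a macrophage metalloelastase of the monocyte and macrophage list, passed it (adjusted p = 0.0040), at 0.09, -1.43 and 0.13 in control and -3.59, -4.22 and -3.83 in mPGC-1α. The part of these lists in the receptor values was not tested. Cx3cr1, the fractalkine receptor whose promoter drives the Cre in mPGC-1α mice, read 3.81, 3.28 and 3.71 in control and 2.38, 1.95 and 2.72 in mPGC-1α with the probe that could be tested, a difference of -1.25 ± 0.24 (SE, limma adjusted p = 0.669), and -1.41 without control array 2 (adjusted p = 0.013). Its other probe, marked on 3 arrays, had overlapping groups. By its name the Cre allele is an allele of Cx3cr1 itself, and its part in the Cx3cr1 values was not tested.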

How the data were processed

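RNA of P2RY12-selected microglia was hybridised to Agilent mouse gene expression arrays in 1 colour (Cy3 in one label field, Cy5 in the labelling protocol). The deposited scanner files give spot intensity from Feature Extraction 11.5.1.1, background-subtracted by the authors' scanner software. The authors' value table, on a log2 scale with equal medians in all 6 columns, served as an alternative. Both slides held both groups.

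Here log2 processed signals were set relative to the 75th percentile of all non-control spots on each array, marked spots included. Marked spots were mostly bright and unevenly spread (3.29% to 30.6% of spots above that percentile), so leaving them out of the percentile was an alternative, chosen after seeing the data. Marked spots were then left out and spots of a probe averaged. Accessions of 33767 of 56605 probes matched RefSeq genes. Probes detected above background on every unmarked array of at least 1 group, with 2 or more values per group, were tested with limma 3.58.1 (R 4.3.3, lmFit, eBayes with trend, group only), Benjamini-Hochberg over 40745 probes, and the steps were tested on simulated data. The methods name no test for the arrays. The Mann-Whitney test they give for comparisons of 2 groups in general, in its exact form, cannot go below p = 0.10 with 3 arrays each. Single values had two-sided exact permutation tests over 20 assignments. The brightest tested probe stood for a gene. All 10 receptor and ligand genes were named, with 8 related genes whatever their values, related genes that did not overlap and differed at least 2-fold, and markers needed to check the labels. The members and lists were chosen with earlier results of these data known. Genes of like pattern were to be named for receptors spanning 2 log2 units, which no brightest probe did (largest 1.74).

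Arrays with the same replicate number in the labels deviated together weakly. The correlation of deviations from group means was 0.247, 0.224 and 0.171 for numbers 1, 2 and 3, and -0.337 to 0.03 for other pairs. The arrays numbered 3 were also the only ones on the second slide. The numbers were tried as a pairing of the arrays, though no source used here says that the arrays were paired. The main fit and the permutation tests did not use this pairing, which entered as the replicate block. The number of arrays limits the precision. Alternatives changed the normalization, background correction, filter, outlier spots, variance model, probe choice, slide, replicate block, source of values and arrays included.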

Additional observations from a re-analysis of the deposited data

How the results depend on the processing

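No receptor or ligand probe passed the limma test under any processing alternative, and the 2 that passed without control array 2 were the dimmer Axl probe (-2.95) and the brighter Msr1 probe (-1.26). Leaving out 1 array at a time gave 0 to 2 of these probes past the test, 0 to 2130 of all probes (2130 without control array 2), and a median over the receptor genes of -0.45 to 0.049, the lowest without control array 1. Under the processing alternatives that median ran from -0.27 (probes well above background on all 6 arrays) to 0.002 (array median). With the replicate block, alone or with quantile normalization, 1 probe of the whole array passed (0 without it), and the block changed no call among the receptors, where the dimmer Axl probe had an adjusted p of 0.124 and the brighter Msr1 probe 0.194. The median of the TAM axis list was -0.36 when all probes of a gene were averaged, against 0.30.

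Signs of values near 0 turned, and for those turns the cause was not tested. Mertk was at 0.033 with the array median. Marco was at 0.015 with quantile normalization, with or without the replicate block, and 0.068 with normexp, and ranged from -0.25 to 0.13 with 1 array left out. Fcgr1, marked spots kept, was at -0.093 with quantile normalization, with or without the replicate block, -0.11 with normexp and -0.10 in the authors' table, and ranged from -0.12 to 0.13 with 1 array left out. The brighter Fcgr2b probe was at -0.019 with normexp and -0.040 in the authors' table, and ranged from -0.033 to 0.21. The other was at 0.0015 with marked spots kept, 0.17 with the slide or the replicate block and 0.0037 with the block and quantile normalization, and ranged from -0.43 to 0.17. The dimmer Msr1 probe ranged from -0.55 to 0.023, above 0 without control array 2. Averaging both Axl probes gave -1.37 against 0.22, on the 5 arrays where both had a value, because the dimmer probe then sets the sign. Of all recomputed values, 321 kept their direction and their side of the threshold, or moved little, and 22 turned sign. A further 6 counts or medians moved. The other 2 were the dimmer Axl and brighter Msr1 probes without control array 2, which passed the threshold.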
